A study of Mus musculus with 3 samples.

Results

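Iron handling genes were followed through the cells of an injured and implanted mouse muscle. The set has 9 members, chosen by their gene symbols among the 32285 genes of the count matrices: Ftl1, Fth1, Slc40a1, Tfrc, Slc11a1, Scara5, Cp, Trf and Steap3. All 9 had a single row in each matrix, and they were chosen with earlier results of these data known. The cells came from the quadriceps of C57BL/6 wildtype mice with a volumetric muscle loss, a surgical removal of muscle tissue, into which particles of polycaprolactone (PCL), a degradable polyester, had been placed 6 weeks earlier. The labels' protocols describe a dead cell depletion, a magnetic split into cells with and without the leukocyte protein CD45, and a 1:1 remix, after which 10x Genomics 3′ libraries (chemistry version 3.1) were made. There is 1 group of 3 libraries, named replicates 1, 2 and 3, and no untreated muscle, so every comparison was made between kinds of cells within the same libraries. No label states whether each library is a different mouse, and the p-values therefore cover variation among the libraries, possibly technical.

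Cells hold iron in ferritin, a hollow shell built from heavy (Fth1) and light (Ftl1) chains, and release it through ferroportin (Slc40a1), the known cellular iron exporter of mammals. In plasma, iron travels on transferrin (Trf). It enters cells when the transferrin receptor (Tfrc) is taken into endosomes, where the reductase Steap3 prepares it for transport. Scara5 is a scavenger receptor that has been described to take up ferritin, ceruloplasmin (Cp) is a copper-containing ferroxidase that works with ferroportin, and Slc11a1 moves divalent metals out of phagosomes. C57BL/6 mice are known to carry a loss-of-function allele of Slc11a1, so its transcript level says nothing of its activity. Macrophages that engulf dead cells and red cells are known for recycling iron.

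Several of these transcripts carry iron-responsive elements, hairpins that iron regulatory proteins bind when iron is scarce: in a 5′ UTR they hold back translation, and in the 3′ UTR of Tfrc they protect the RNA from decay. The hairpins are shown because levels of transcript and of protein can part in the genes that have them. A search of the sense strand of the GENCODE M21 transcripts (mouse, GRCm38) used a C, 5 bases, CAGTG followed by A, C or T, and 5 bases that pair with the earlier 5, with G:T pairs and at most 1 mismatch allowed. It found the element in 4 of the 9 members, on chromosome 19 for Fth1, 7 for Ftl1, 1 for Slc40a1 and 16 for Tfrc. Capitals mark the 6 bases of the loop, and each printed site is 29 bases long, 5′ to 3′.
Fth1, 5′ UTR: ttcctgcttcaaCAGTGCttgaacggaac
Ftl1, 5′ UTR: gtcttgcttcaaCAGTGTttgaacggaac
Slc40a1, 5′ UTR: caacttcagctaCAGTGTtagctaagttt
Tfrc, 3′ UTR, site 1: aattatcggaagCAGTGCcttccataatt
Tfrc, 3′ UTR, site 2: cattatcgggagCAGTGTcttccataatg
Tfrc, 3′ UTR, site 3: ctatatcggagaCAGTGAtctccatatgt
Tfrc, 3′ UTR, site 4: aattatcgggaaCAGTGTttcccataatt
Counted from the start of the annotated transcript, the sites lay at bases 87 to 115 of Fth1, 78 to 106 of Ftl1 and 90 to 118 of Slc40a1. The sites of Tfrc lay at bases 3315 to 3343, 3694 to 3722, 3759 to 3787 and 3806 to 3834. The same search found a match in the 5′ UTR of 0.608% of 20873 genes and in the 3′ UTR of 3.11% of 20987 genes. No match was found in the UTRs of Slc11a1, Scara5, Cp, Trf and Steap3, which says only that these letters are not in those stretches.

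The libraries held 6068, 8643 and 4996 barcodes with median depths of 17855.5, 20286 and 17008.5 UMIs (unique molecular identifiers, 1 per captured molecule). After filters and the removal of likely doublets, 17950 cells remained, and pairs of libraries shared 10 to 13 barcodes. Cells were clustered without the members and without other iron genes, and clusters were named from marker lists, hence the ending "-like". There were 18 named classes, 12 of which had at least 20 cells in every library, and 4.38% of cells stayed unnamed. Levels are described over those 12 classes. The largest were 9819 fibroblast-like, 3361 macrophage-like, 960 neutrophil-like, 869 endothelial-like and 511 monocyte-like cells. Levels are in CPM: the UMIs of a gene in all cells of a class and library, scaled to a total of 1000000 UMIs for those cells. Ftl1 and Trf overlap annotated neighbours on their own strand, Gm22133 and Gm20425, and their counts could include some of those neighbours' reads. Cp overlaps only a gene on the opposite strand, Hps3. The near-identical copy Ftl1-ps1 held 10080 UMIs against 855411 for Ftl1, a 1.18% addition that the counting could have split from it, and the Fthl17 copies of Fth1 held at most 5 UMIs.

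The 2 ferritin chains were most abundant in the phagocytes. Ftl1 stood at 9883, 11251 and 13221 CPM in the neutrophil-like cells of replicates 1, 2 and 3, with a mean of 11452 ± 1678 CPM (SD, n = 3). In macrophage-like cells it stood at 6908, 7728 and 7748 CPM, or 7461 ± 479.6 CPM (SD, n = 3). No macrophage-like value reached the lowest neutrophil-like one, and none of the other 10 classes reached the lowest macrophage-like one. The neutrophil-like class joins 2 unlike clusters, described below. Its cluster 17 (344 cells) had 2005, 2366 and 2143 CPM of Ftl1, below every macrophage-like value. Monocyte-like cells had 2525 ± 372 CPM and the class of T, natural killer (NK) or innate lymphoid (ILC) cells 2382 ± 445 CPM, with overlapping ranges. Conventional dendritic cells of types 1 and 2 (cDC1 and cDC2) came next, at 1823 ± 433 CPM in the cDC1-like and 1139 ± 115 CPM in the cDC2-like class. Fibroblast-like cells had 1088, 1155 and 1170.5 CPM, close to the cDC2-like class. The tenocyte-like, muscle fibre-like, lymphatic endothelial-like, endothelial-like and mural-like classes followed with means of 966, 818, 706, 668 and 606 CPM, each neighbour overlapping the next.

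Fth1 headed the same 2 classes and parted from Ftl1 lower down. It averaged 21680.1 ± 1925 CPM in neutrophil-like and 16415 ± 1412 CPM in macrophage-like cells (SD, n = 3 each), without overlap. In neutrophil-like cluster 17 alone Fth1 was at 10014, 10763 and 8583 CPM, again below every macrophage-like value. The monocyte-like values were 5249.6, 6154 and 7365 CPM. Monocyte-like cells overlapped with the T, NK or ILC-like class at 6181 ± 1686 CPM. Muscle fibre-like droplets, a class of low depth, held 6087 ± 1449 CPM. Lymphatic endothelial-like cells had 5013, 5084 and 4219 CPM, above every value of the blood endothelial-like class, which had 1322, 1339 and 1450.2 CPM and was the lowest of the 12. Fibroblast-like cells had 2937, 2689.7 and 2401 CPM, between the overlapping tenocyte-like mean of 2903 and cDC2-like mean of 2607 CPM.

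**Figure D1:**
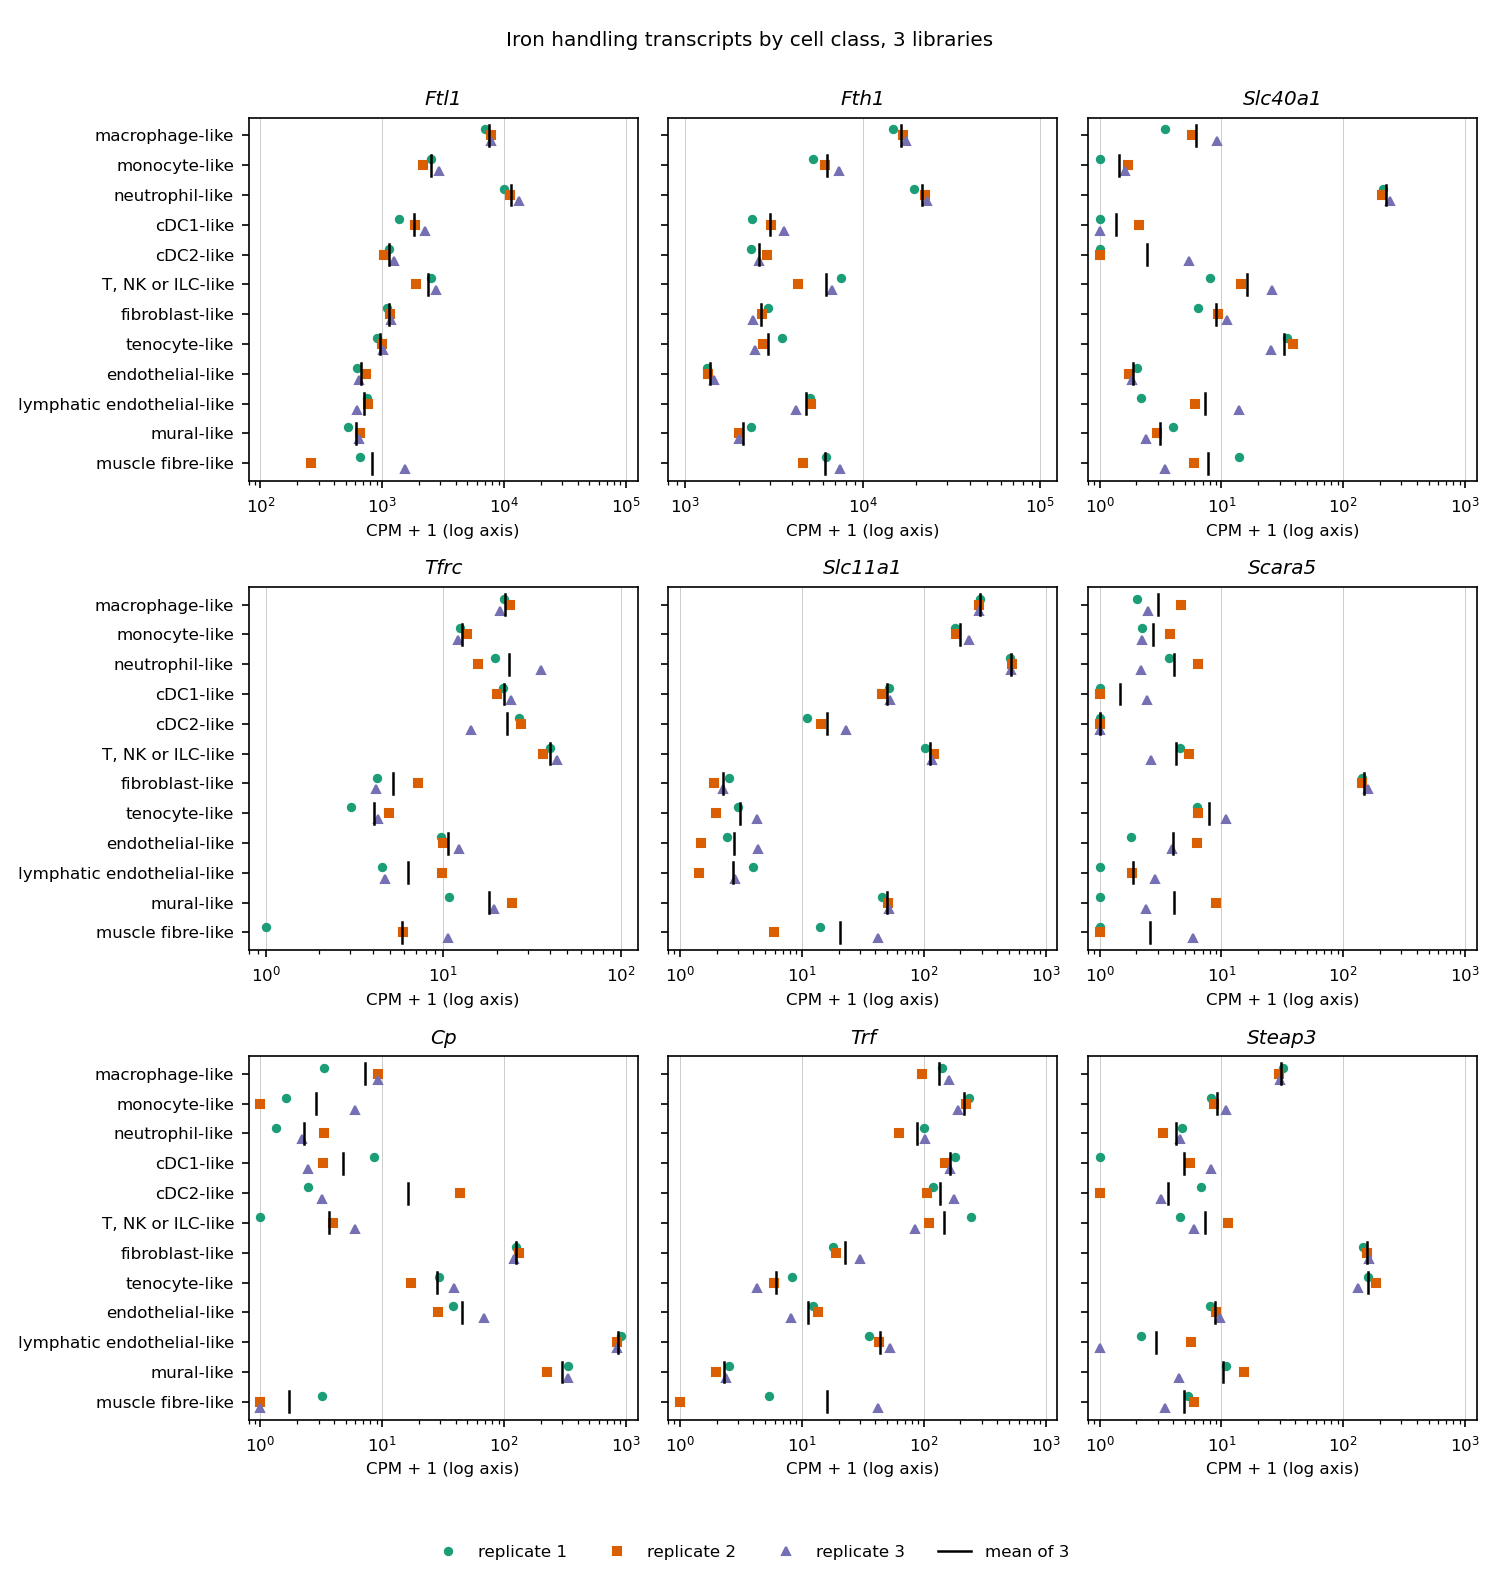
CPM of each of the 9 members plus 1 on a log axis, in the 12 classes with at least 20 cells in every library. Coloured symbols are the 3 libraries and black lines their means. Ferritin, Slc40a1 and Slc11a1 peak in the neutrophil-like row, Scara5 in the fibroblast-like row and Cp in the lymphatic endothelial-like row.

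As a level in CPM, ferroportin RNA peaked in neutrophil-like cells. Of all Slc40a1 UMIs in kept cells, they held 45.3%, 15.9% and 18.6% in replicates 1, 2 and 3, a mean of 26.6%. Fibroblast-like cells, the most numerous class, held a mean of 54.3%. Slc40a1 stood at 213, 209 and 243 CPM in neutrophil-like cells, or 221 ± 18.7 CPM (SD, n = 3). The next class, tenocyte-like cells, had 33.4, 37.4 and 24.6 CPM, and no other class with enough cells averaged over 15.1 CPM. That last mean belonged to the T, NK or ILC-like class, whose 8 neutrophil markers also summed to 3736 to 5469 CPM, against 211 to 373 CPM in monocyte-like cells. The part of neutrophil RNA in the Slc40a1, ferritin and Slc11a1 levels of this class was not tested. Fibroblast-like cells had 5.38, 8.39 and 10.1 CPM, and macrophage-like cells had 2.46, 4.73 and 8.21 CPM. Monocyte-like and cDC1-like cells were at the bottom, at 0.441 and 0.374 CPM. At least 1 Slc40a1 UMI was seen in 45.1% of neutrophil-like cells, which had a median depth of 4990 UMIs. It was seen in 4.14% of macrophage-like cells at a median of 12172 UMIs and in 0.391% of monocyte-like cells at 12390 UMIs. With every cell thinned to 2000 UMIs and 87 shallower neutrophil-like cells left out, the neutrophil-like share was 29.9%, the macrophage-like share 1.08% after leaving out 385 cells, and the monocyte-like share 0.202% after leaving out 15.

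Slc11a1, the phagosomal transporter, formed a ladder of phagocytes with no overlap between its steps. Neutrophil-like cells had 509, 524 and 516 CPM, macrophage-like cells 289.9, 285 and 285 CPM and monocyte-like cells 179, 183 and 234 CPM. T, NK or ILC-like cells followed at 113 ± 9.67 CPM and cDC1-like cells at 49.3 ± 3.82 CPM. Mural-like cells, the contractile cells of vessel walls, had 44.6, 50.2 and 51.3 CPM, overlapping the cDC1-like class. All 13 macrophage markers had UMIs in the mural-like class, with a sum of 182 to 189.7 CPM. That sum lay above the 77.9 to 139 CPM of endothelial-like cells, where Slc11a1 averaged 1.76 CPM, and below the 312 to 412 CPM of fibroblast-like cells, where it averaged 1.24 CPM. A Slc11a1 UMI was seen in 35.8% of mural-like cells (median depth 14557.5 UMIs) and in 1.96% of endothelial-like cells (8956 UMIs). After thinning to 2000 UMIs, with 26 and 224 shallower cells left out, the shares were 7.88% and 0.465%.

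The uptake genes divided between immune and stromal cells. For Tfrc the T, NK or ILC-like class led with 39.04, 35.7 and 42.96 CPM, above every value of the other 11 classes. Neutrophil-like, cDC2-like, macrophage-like and cDC1-like cells overlapped at means of 22.5, 21.9, 21.2 and 20.97 CPM, while fibroblast-like cells had 3.21, 6.22 and 3.17 CPM. Scara5 went with fibroblasts: the fibroblast-like class had 142, 141 and 159.7 CPM, the tenocyte-like class 6.87 ± 2.58 CPM and no other of the 12 classes averaged over 3.22 CPM. Of all Scara5 UMIs in kept cells, a mean of 99.3% over the 3 libraries lay in fibroblast-like cells, the most numerous class. A Scara5 UMI was seen in 58.98% of fibroblast-like cells (median depth 26663 UMIs) and in 1.67% of neutrophil-like cells (4990 UMIs). Thinned to 2000 UMIs, with 59 and 87 cells left out, the shares were 24.3% and 0.458%. Steap3 was shared by tenocyte-like cells at 159, 183 and 131 CPM and fibroblast-like cells at 144, 156 and 163 CPM, with overlapping ranges. Macrophage-like cells followed for Steap3, at 31.02, 28.9 and 29.3 CPM, and the other 9 classes stayed below their lowest value.

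The secreted proteins Cp and Trf had opposite homes. Cp stood at 910.2, 849 and 837 CPM in lymphatic endothelial-like cells, or 866 ± 39.03 CPM (SD, n = 3). Mural-like cells came next with 334, 225 and 333 CPM and fibroblast-like cells after them with 124, 131 and 119 CPM, without overlap between these steps. Endothelial-like cells, the blood-vessel counterpart of the first class, had 36.8, 27.5 and 67.1 CPM. A Cp UMI was seen in 93.6% of lymphatic endothelial-like cells (median depth 14994.5 UMIs) and in 0.521% of neutrophil-like cells (4990 UMIs). Thinned to 2000 UMIs, with 11 and 87 cells left out, the shares were 82.1% and 0.344%. Trf, in contrast, had its highest mean in monocyte-like cells, at 234, 220.1 and 189 CPM. The cDC1-like, T, NK or ILC-like, cDC2-like and macrophage-like classes overlapped at means of 163, 146, 134 and 132 CPM, and 1 library of the T, NK or ILC-like class, at 244 CPM, exceeded all 3 monocyte-like values. Fibroblast-like cells had 17.1, 18.1 and 28.9 CPM and mural-like cells 1.30 ± 0.274 CPM, the lowest mean of the 12 classes.

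Set against fibroblast-like cells, macrophage-like cells held more of the storage chains and of Slc11a1, Trf and Tfrc, and less of Scara5, Cp and Steap3. A gene was called when its Benjamini-Hochberg adjusted p, over all genes tested by edgeR's quasi-likelihood test with the library as a block, was under 0.05 and its log2 difference was at least 1 in size. By that rule 5 of the 9 members were higher in macrophage-like cells and 3 lower, where the rule called 48.0% of all genes tested, 18.3% higher and 29.7% lower. The median log2 difference was 2.43 over the members and -0.13 over all genes. Ferritin was higher in both chains: Ftl1 (log2 difference 2.74, SE 0.0753, adjusted p = 7.35e-08) and Fth1 (log2 difference 2.65, SE 0.116, adjusted p = 7.49e-07) in edgeR's quasi-likelihood test. Among the genes of phagosomal and plasma iron, Slc11a1 was the most raised (log2 difference 7.93, SE 0.138, adjusted p = 1.75e-08). Trf was higher (log2 difference 2.67, adjusted p = 1.24e-06), and so was Tfrc (log2 difference 2.43, adjusted p = 1.29e-05), by the same edgeR test. Scara5 was lower (log2 difference -6.41, SE 0.238, adjusted p = 3.16e-07), as were Cp (log2 difference -4.43, adjusted p = 8.16e-06) and Steap3 (log2 difference -2.34, adjusted p = 1.49e-07), again by edgeR. In each of these 8 genes the 3 macrophage-like values lay either all above or all below the 3 fibroblast-like values.

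Slc40a1 was the member not called there (log2 difference -0.66, SE 0.180, adjusted p = 0.0115, edgeR). Of its 258 macrophage-like UMIs, 148 lay in 1 subcluster. That subcluster, state 4 of the macrophage-like states, had all 8 neutrophil markers with a sum of 12094 to 12368 CPM, against 164 to 644 CPM in states 0 to 3 and 77263 to 85618 CPM in the neutrophil-like class. Without it Slc40a1 was lower in macrophage-like cells (log2 difference -1.82, SE 0.285, edgeR adjusted p = 0.000635), which made 9 of 9 members called. The cells left out were chosen after their markers had been seen, and the part of neutrophil RNA in the level was not tested.

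**Figure D2:**
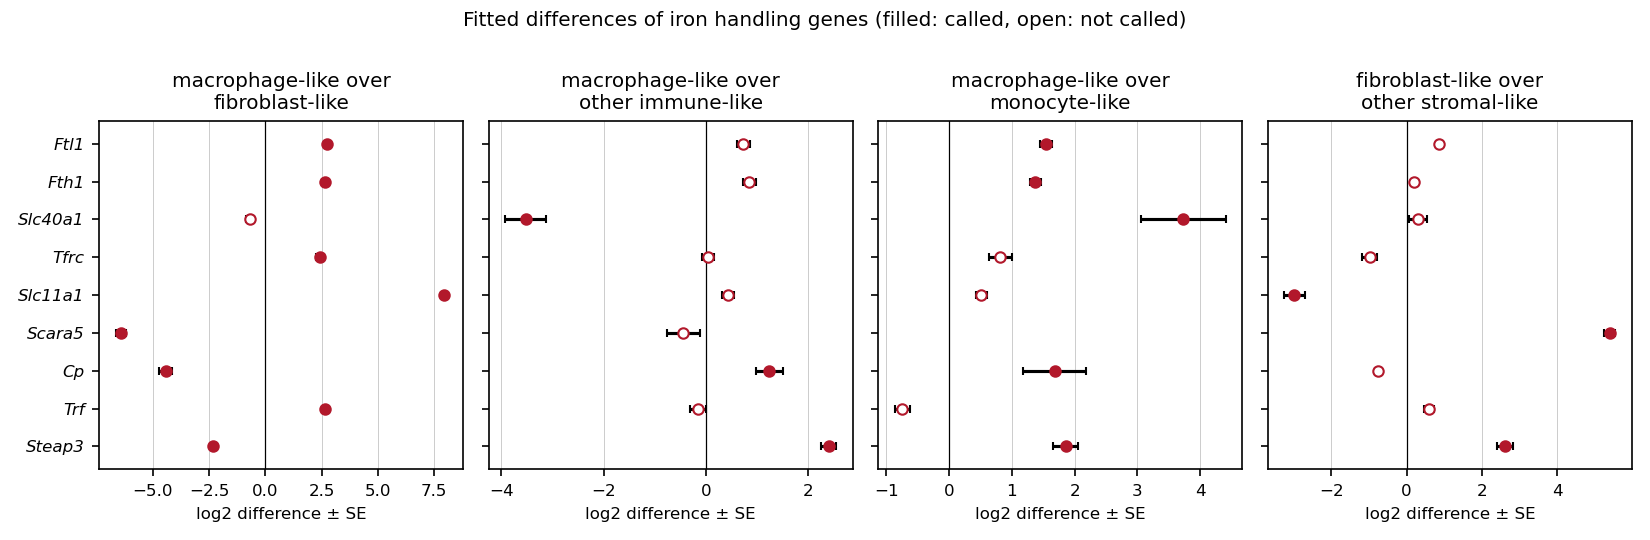
Fitted log2 differences ± SE of the members in the 4 planned comparisons, filled where called and open where not. Slc11a1 and Scara5 lie farthest from 0 in macrophage-like over fibroblast-like cells, at 7.93 and -6.41.

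Macrophage-like cells were next set against all other immune-like cells pooled. The rule called 3 of 9 members, 2 higher and 1 lower, against 28.0% of all genes tested, 10.4% higher and 17.6% lower. The median log2 difference was 0.44 over the members and 0.0366 over all genes. Steap3 was at 31.02, 28.9 and 29.3 CPM in macrophage-like and 5.64 ± 1.19 CPM (SD, n = 3) in other immune-like cells, without overlap (log2 difference 2.40, SE 0.148, adjusted p = 5.79e-06, edgeR). Cp was at 2.34, 8.14 and 8.21 CPM in macrophage-like and 0.873, 4.60 and 2.72 CPM in other immune-like cells, where ranges overlapped although the paired fit called it (log2 difference 1.24, SE 0.266, adjusted p = 0.00391, edgeR). That call was lost when doublets were kept (log2 0.74, adjusted p = 0.0721) and without the library block (adjusted p = 0.115). Slc40a1 was at 2.46, 4.73 and 8.21 CPM in macrophage-like and 68.6, 52.7 and 43.4 CPM in other immune-like cells (log2 difference -3.52, SE 0.403, adjusted p = 0.000134, edgeR). The library values did not overlap.

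Neutrophil-like cells gave 31.8%, 23.9% and 16.4% of the UMIs on the other immune-like side in replicates 1, 2 and 3. Without them the Slc40a1 difference turned round, to 0.84 (adjusted p = 0.024, edgeR), under the size needed for a call. That fit kept macrophage state 4, which held 148 of the 258 macrophage-like Slc40a1 UMIs. Without state 4 the macrophage-like level was 1.10, 1.09 and 4.37 CPM, and the part of that state in the turn was not tested. In the same fit both ferritin chains and Slc11a1 were called higher in macrophage-like cells, at log2 differences of 1.77 for Ftl1, 1.78 for Fth1 and 1.42 for Slc11a1. With neutrophil-like cells included, these 3 stood at 0.73, 0.85 and 0.44, and none was called. Fth1 was called when replicate 1 was left out (log2 1.02, adjusted p = 4e-06, edgeR). Tfrc (0.0417), Trf (-0.15) and Scara5 (-0.45) were not called in either fit.

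Macrophage-like cells held more ferritin RNA than monocyte-like cells. Of the 8 members abundant enough to be tested, 5 were called, all higher in macrophage-like cells, where the rule called 19.2% of all genes tested, 11.3% higher and 7.83% lower. Scara5 was too low for the test. Ftl1 (log2 difference 1.54, SE 0.0919, adjusted p = 9.79e-13) and Fth1 (log2 difference 1.38, SE 0.0835, adjusted p = 1.4e-12) were higher by edgeR's test, and for both chains every macrophage-like library exceeded every monocyte-like one. Steap3 was at 31.02, 28.9 and 29.3 CPM in macrophage-like and 7.14, 7.71 and 9.94 CPM in monocyte-like cells (log2 difference 1.86, adjusted p = 2.62e-08, edgeR). Its difference was 0.94 with doublets kept, just under the size for a call. Trf had 139.8, 96.1 and 161 CPM in macrophage-like cells and 234, 220.1 and 189 CPM in monocyte-like cells, a difference not large enough for a call (log2 difference -0.74, SE 0.120, adjusted p = 1.51e-05, edgeR). Tfrc (0.82) and Slc11a1 (0.52) were not called.

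The remaining calls against monocytes rested on few molecules. Slc40a1 was at 2.46, 4.73 and 8.21 CPM in macrophage-like and 0, 0.701 and 0.621 CPM in monocyte-like cells (log2 difference 3.73, adjusted p = 6.76e-05, edgeR). The monocyte-like side held 2 Slc40a1 UMIs in all, and the macrophage-like side 258, a ratio of levels of 15.4 with an exact 95% interval of 4.22 to 127.9 that covers counting error only. Without state 4 the macrophage-like level was 1.10, 1.09 and 4.37 CPM, too low for the test, which left 4 calls. Cp was at 2.34, 8.14 and 8.21 CPM in macrophage-like and 0.621, 0 and 4.97 CPM in monocyte-like cells, and the ranges overlapped (log2 difference 1.69, adjusted p = 0.00709, edgeR). Cp was not called without replicate 2 (log2 1.06, adjusted p = 0.0863), and with doublets kept the difference was -0.0121.

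Against the other stromal cells pooled, Scara5 and Steap3 were higher in fibroblasts. Fibroblast-like cells were compared with tenocyte-like, endothelial-like, lymphatic endothelial-like, mural-like, muscle and Schwann-like cells pooled, and 2 of 9 members were called higher and 1 lower, against 30.5% of all genes tested, 13.6% higher and 16.9% lower. Scara5 was at 142, 141 and 159.7 CPM in fibroblast-like and 2.87, 5.10 and 4.01 CPM in other stromal-like cells (log2 difference 5.40, SE 0.151, adjusted p = 1.62e-06, edgeR). Steap3 was at 144, 156 and 163 CPM in fibroblast-like and 28.3, 42.4 and 17.7 CPM in other stromal-like cells (log2 difference 2.62, SE 0.224, adjusted p = 0.000142, edgeR). Slc11a1 was at 1.53, 0.912 and 1.27 CPM in fibroblast-like and 8.52, 9.84 and 16.4 CPM in other stromal-like cells (log2 difference -2.98, SE 0.269, adjusted p = 0.000179, edgeR). None of these 3 pairs of ranges, fibroblast-like against pooled, overlapped. Classes within the pool differed. Tenocyte-like cells had 131 to 183 CPM of Steap3, overlapping the fibroblast-like values. For Slc11a1, mural-like cells averaged 48.7 CPM and muscle fibre-like droplets 19.7 CPM. Tenocyte-like, endothelial-like and lymphatic endothelial-like cells averaged 2.09, 1.76 and 1.73 CPM of Slc11a1, each overlapping the fibroblast-like range. The median log2 difference was 0.31 over the members and -0.00477 over all genes. TMM scaling raised all fitted differences of this comparison by 0.21 on the log2 scale relative to plain totals.

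Cp in fibroblasts depended on what it was set against. It was at 124, 131 and 119 CPM in fibroblast-like cells and 231, 245 and 265 CPM in the other stromal-like cells summed (log2 -0.77, not called). Against an average log level in which each other stromal class had equal weight, the difference turned to 1.34 and was called (edgeR adjusted p = 0.000319). In the sums, lymphatic endothelial-like and mural-like cells, the highest in Cp, gave means of 18.5% and 17.9% of the UMIs. Trf stood at 0.59 against the sum and at 1.14, called, with equal weights. Tfrc stood at -0.98, just short of a call, and passed it without replicate 1 (-1.03) or without replicate 2 (-1.14). Ftl1 (0.87), Fth1 (0.21) and Slc40a1 (0.31) were not called.

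The macrophage-like cells fell into 8 subclusters, here called states, 5 of which had at least 20 cells in every library. State 0 (886 cells) led in Mmp12, the macrophage elastase, at 7785 CPM, with Spp1 at 2443 CPM. State 1 (703 cells) had the chemokine Ccl24 at 789.7 CPM. State 2 (690 cells) had a median of 3050.5 UMIs and fibroblast markers summing to 2453 to 6040.5 CPM, against 385 to 938 CPM in the other 4. State 3 (603 cells) had the complement gene C1qa at 2800.3 CPM and the mannose receptor Mrc1 at 571 CPM. State 4 (196 cells) had the neutrophil markers given above. Each state was tested against the average log level of the other 4, with 8 members abundant enough, Scara5 being too low.

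Transferrin RNA was higher in the C1qa-high state. Trf in state 3 was at 350.4, 208 and 382 CPM, against means of 79.5, 53.8, 74.1 and 176 CPM in states 0, 1, 2 and 4 (log2 difference 1.84, SE 0.100, adjusted p = 1.36e-11, edgeR). The lowest value of state 3 lay below the highest of state 4, at 226 CPM, and above every value of states 0 to 2. Cp was the other member called in state 3, where 2 of 8 were higher and none lower, and the rule called 3.16% of genes higher and 2.62% lower. Its values were uneven, at 4.65, 39.4 and 21.04 CPM (log2 difference 2.54, SE 0.338, adjusted p = 4.7e-06, edgeR). They lay above every library of states 0 and 1 and overlapped states 2 and 4, which reached 5.59 and 15.97 CPM. With doublets kept the Cp difference was 0.99 and not called (adjusted p = 0.167). Slc40a1 was not called in state 3 (0.79), and was called without replicate 1 (2.10, adjusted p = 0.018).

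Of the 5 tested states, the Ccl24-high one had the most members called lower. In state 1, 4 of 8 members were lower and none higher, against 1.09% of genes higher and 4.81% lower. Trf there was at 57.5, 38.8 and 65.2 CPM (log2 difference -1.38, adjusted p = 8.74e-08, edgeR), and Steap3 at 16.6, 15.9 and 15.5 CPM, below every library of the other 4 tested states (log2 difference -1.12, adjusted p = 3.57e-06, edgeR). Slc40a1 (log2 -2.96) and Cp (-2.13) were also called lower, on levels near 1 CPM or less, and Slc40a1 had 5 UMIs there in all. Without replicate 3, Slc40a1 stood at -1.96 (adjusted p = 0.0528) and Cp at -1.89 (adjusted p = 0.0608), neither called.

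State 0, the highest in Mmp12, held the most light chain of the 5. State 2, next in Mmp12 at a mean of 5903 CPM, had a mean of 6739.6 CPM of Ftl1. Ftl1 in state 0 was at 8184, 9568 and 9473 CPM, and all its libraries exceeded every library of the other 4 states, whose means ran between 5887 and 6739.6 CPM. The fitted difference, 0.57, was below the size for a call. Fth1 ranged between means of 13979.8 and 21185 CPM over the 5 states and was called in none. Among the states too small for the test, state 5 (170 cells, median 1065.5 UMIs) had 11042 ± 1629 CPM of Ftl1. The 2 calls in state 0 were both lower, against 1.71% of genes higher and 4.67% lower: Slc40a1 (log2 difference -1.44, adjusted p = 0.0426) and Cp (log2 difference -1.78, adjusted p = 0.00582) by edgeR. Slc40a1 had a mean of 1.08 CPM in state 0, against 0.307, 1.67, 4.33 and 37.6 CPM in states 1, 2, 3 and 4. State 0 was thus not the lowest, and the average it was set against included state 4. The Slc40a1 call was lost without replicate 1 (-0.45) or replicate 2 (-1.15), and the Cp call without replicate 3 (-1.40).

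State 4 had 1 member of 8 called higher and none lower, against 6.04% of genes higher and 0.286% lower: Slc40a1 at 20.3, 39.8 and 52.6 CPM (log2 difference 4.66, SE 0.344, adjusted p = 4.46e-10, edgeR). The other 4 tested states stayed below 9 CPM in every library, while state 6, too small for the test, had 3.05, 7.43 and 34.9 CPM. A Slc40a1 UMI was seen in 36.7% of its cells at a median of 16284.5 UMIs, and in 1.81% of state 0 cells at 21202.5 UMIs. Thinned to 2000 UMIs, with 3 and 6 cells left out, the shares were 9.84% and 0.455%. The median doublet score was 0.0602 in state 4, against 0.0261 to 0.0307 in states 0 to 3. With this state set aside, Slc40a1 was too low to be tested among macrophages. State 2 had no call among 8 members by edgeR or by DESeq2, against 4.91% of genes higher and 4.58% lower, and 5 of the 8 had an unadjusted edgeR p under 0.05. Of the 5 tested states it had the highest mean of Steap3, at 34.3, 47.96 and 48.3 CPM (log2 0.81), and passed the call without replicate 1 (1.09). Tfrc and Slc11a1 were called in none of the 5 states, with means of 17.4 to 29.3 and 217 to 329.8 CPM.

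**Figure D3:**
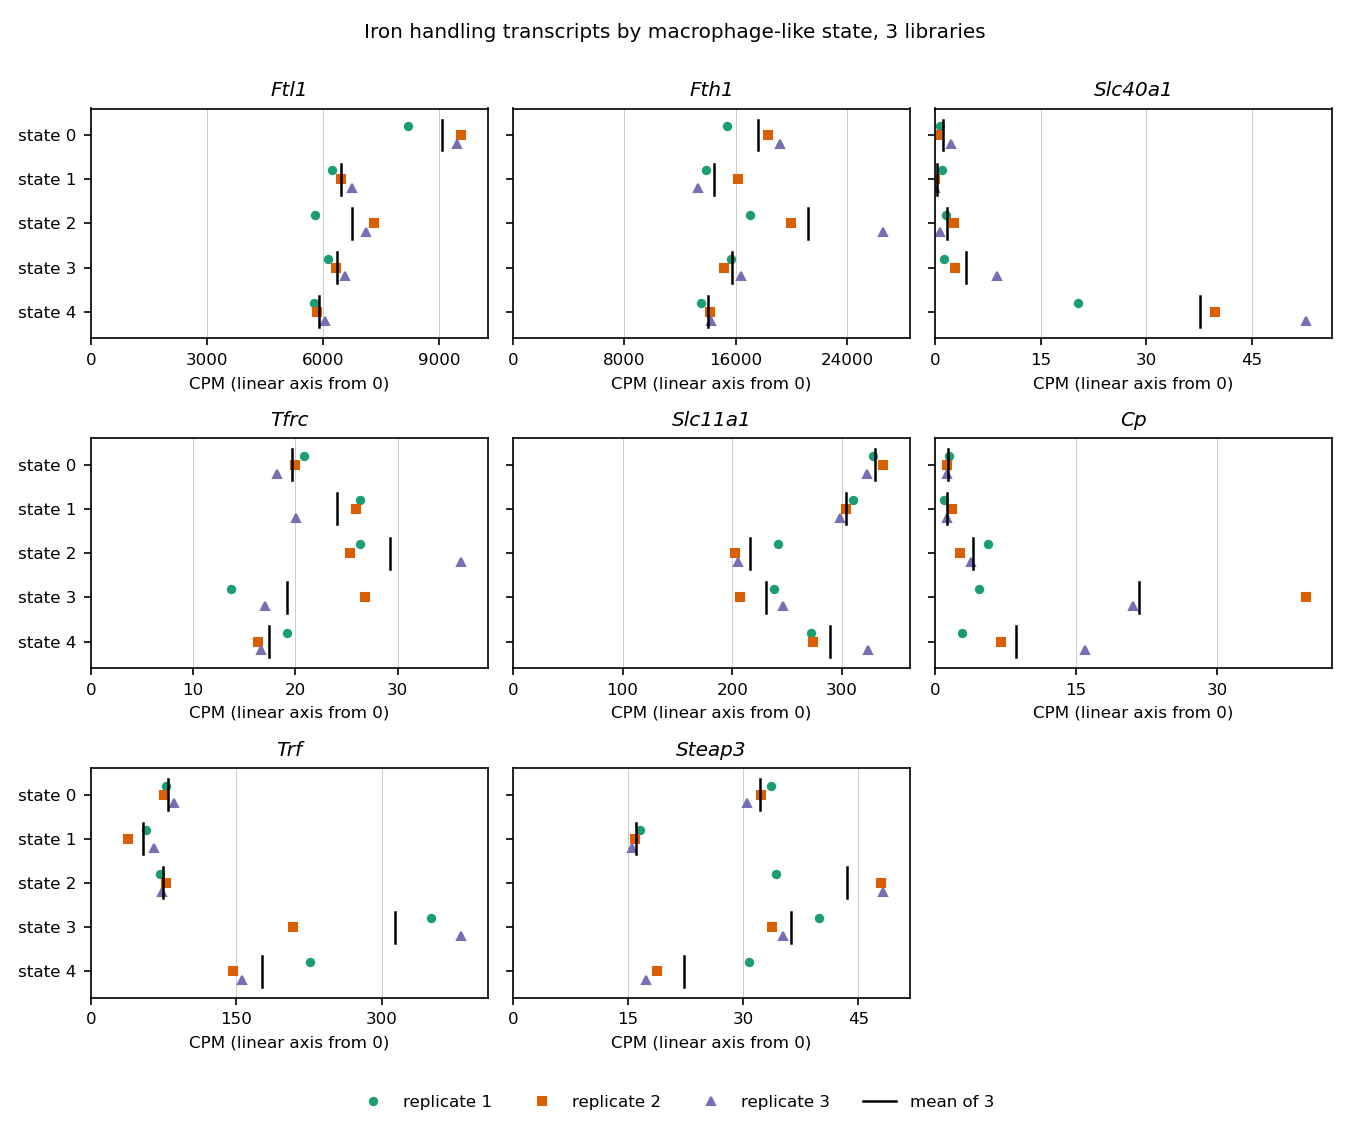
CPM, on linear axes from 0, of 8 members in the 5 macrophage-like states, with symbols for the 3 libraries and black lines for means. State 3 lies to the right for Trf and state 4 for Slc40a1.

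Fibroblast-like cells formed 9 states with at least 20 cells in every library, in which Scara5 was called 5 times and Cp 4 times. State 0 (2464 cells) had the matrix genes Tnc at 1627 CPM and Spp1 at 1087 CPM. State 1 (1970 cells) and state 5 (813 cells) had the acute-phase gene Saa3 at 1122 and 943 CPM. State 2 (1824 cells) had Pi16, a gene of adventitial fibroblasts, at 2522 CPM. State 3 (901 cells) had Smoc2 at 1638 CPM, and state 4 (817 cells) elastin, Eln, at 2733 CPM. State 6 (553 cells) had the interferon-induced Isg15 at 357 CPM and Gdf10 at 305 CPM. State 7 (339 cells) had the proliferation gene Mki67 at 409 CPM together with Tnc at 1734 CPM, and state 8 (138 cells) had no leading gene among those listed. All 9 members were tested in each state against the average log level of the other 8.

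Scara5 followed a steep order. In the Pi16-high state 2 it was at 495, 558 and 613 CPM (log2 difference 2.84, SE 0.0720, adjusted p = 1.39e-19, edgeR). State 3 had 324, 266 and 286 CPM (log2 difference 1.63, adjusted p = 6.03e-14) and state 6 219, 208 and 238 CPM (log2 difference 1.35, adjusted p = 7.75e-12), both called higher by edgeR. The Tnc-high states were at the other end: state 0 had 21.6, 21.4 and 17.9 CPM (log2 difference -2.72, adjusted p = 1.31e-15, edgeR) and the cycling state 7 22.5, 21.6 and 13.7 CPM (log2 difference -2.85, adjusted p = 1.9e-15, edgeR). States 1, 4, 5 and 8 lay between, with every library between 67.6 and 127 CPM. A Scara5 UMI was seen in 97.8% of state 2 cells (median depth 23407 UMIs) and 24.03% of state 0 cells (41271 UMIs). Thinned to 2000 UMIs, with 20 and 4 cells left out, the shares were 62.97% and 4.23%.

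Trf had its highest mean and its 2 lowest means in the same states as Scara5. It was at 46.03, 48.9 and 90.4 CPM in state 2 (log2 difference 2.08, adjusted p = 3.44e-11, edgeR), against 4.49, 5.46 and 4.40 CPM in state 0 (log2 difference -2.13, adjusted p = 6.64e-09, edgeR) and 2.62, 4.15 and 7.80 CPM in state 7 (log2 difference -2.35, adjusted p = 9.35e-07, edgeR). Each of these 3 differences was taken against the mean of the other 8 states. In state 6 Trf was called higher (log2 1.07), but not without replicate 3 (0.76).

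Cp had its own pattern. State 6 held 321, 425 and 387 CPM (log2 difference 2.15, SE 0.159, adjusted p = 9.16e-11, edgeR) and the Saa3-high state 1 held 256, 267 and 263 CPM (log2 difference 1.54, SE 0.157, adjusted p = 3.73e-08, edgeR). The Pi16-high state, where Scara5 was highest, had 69.04, 44.4 and 25.6 CPM of Cp (log2 difference -1.30, SE 0.205, adjusted p = 9.41e-06, edgeR), and state 7 had 45.8, 57.3 and 62.4 CPM (log2 difference -1.26, adjusted p = 2.23e-05, edgeR). State 5, the other Saa3-high state, had 81.3, 94.4 and 79.3 CPM and was not called. State 3 was uneven, with 253, 127 and 122 CPM and no call.

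Slc40a1 was called in 4 of the 9 fibroblast-like states. State 1 had 9.68, 16.3 and 21.1 CPM (log2 difference 1.46, adjusted p = 1.24e-07, edgeR) and the elastin-high state 4 had 12.9, 12.5 and 11.04 CPM (log2 difference 1.13, adjusted p = 7.61e-05, edgeR). The state 4 call was lost without replicate 1 (0.88). Slc40a1 was lower in state 2, at 2.46, 2.41 and 3.23 CPM (log2 difference -1.38, adjusted p = 2.33e-05, edgeR), and in state 7, at 0.873, 2.13 and 0.936 CPM (log2 difference -2.54, adjusted p = 4.89e-07, edgeR). State 6, the highest in Cp, was not called for Slc40a1 (-0.40).

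**Figure D4:**
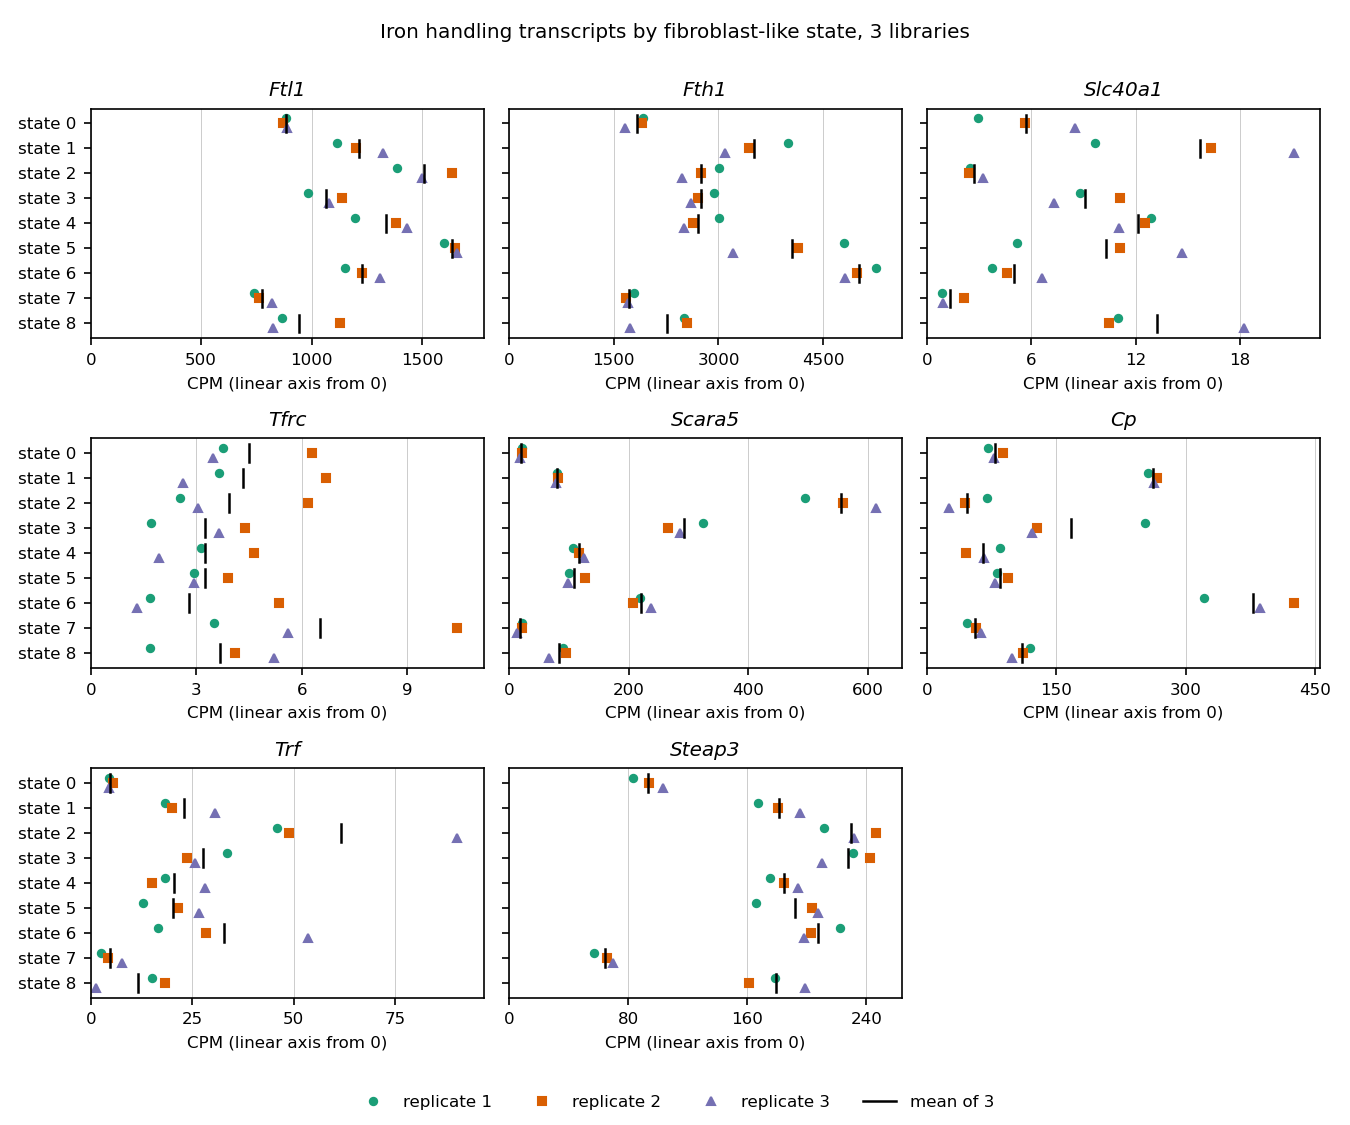
CPM, on linear axes from 0, of 8 members in the 9 fibroblast-like states, with symbols for the 3 libraries and black lines for means. Scara5 spans means of 19.3 CPM in state 7 to 555 CPM in state 2.

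Ferritin and Steap3 were called in 1 fibroblast-like state each, or in none. Fth1 in state 6 was at 5249, 4984 and 4814 CPM, above every library of the other states (log2 difference 1.06, SE 0.0569, adjusted p = 3.34e-13, edgeR), a difference of 0.99 without replicate 3. The lowest Fth1 levels were in state 7, at 1789, 1673 and 1709 CPM, and state 0, at 1917, 1909.7 and 1659 CPM, neither of them called. Without replicate 3, state 7 was called for Fth1 (-1.01). Ftl1 was called in no state, with means of 774 CPM in state 7 to 1636 CPM in state 5. Steap3 was lower in state 7, at 57.2, 66.04 and 69.6 CPM, below every library of the other states (log2 difference -1.68, SE 0.0827, adjusted p = 9.64e-15, edgeR). Tfrc was called in no state. Slc11a1 averaged at most 3.91 CPM in any fibroblast-like state, and it was called higher in state 6 (log2 1.85) and in state 5 (1.10). The state 5 call was lost without replicate 1 (0.99) or replicate 2 (0.93).

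Counted by state, the members' calls were unequal. State 7 had 5 of 9 lower and none higher, against 10.4% of genes higher and 11.3% lower. State 6 had 5 of 9 higher and none lower, against 6.18% of genes higher and 0.926% lower. State 2 had 2 higher and 2 lower, against 5.76% of genes higher and 9.08% lower. State 0 had 2 lower, against 5.99% of genes higher and 7.78% lower, and state 1 had 2 higher, against 3.25% of genes higher and 2.29% lower. States 3, 4 and 5 had 1 higher each, against 7.90% of genes higher and 5.45% lower in state 3, 4.94% of genes higher and 3.40% lower in state 4 and 2.88% of genes higher and 6.79% lower in state 5. State 8 had none by edgeR or by DESeq2, against 8.63% of genes higher and 2.65% lower, and 4 of the 9 members had an unadjusted edgeR p under 0.05 there. TMM scaling moved all log2 differences by 0.16 in state 5, 0.10 in state 6 and -0.18 in states 7 and 8. Without it the higher share of all called genes was 48.0% in state 1, 17.3% in state 5 and 59.0% in state 7, against 58.7%, 29.8% and 47.8% with it. In that fit Fth1 (0.95) and Trf (0.97) in state 6 and Slc11a1 in state 5 (0.94) were no longer called.

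Several members peaked outside the planned comparisons. Each class was therefore tested against the average log level of the other 11, a fit added after the levels had been seen. For this fit, the shares of all genes called count both directions and are not split into higher and lower. Neutrophil-like cells had 7 of 9 members higher and 1 lower, where the rule called 50.8% of all genes in either direction. Their median log2 difference was 2.52 over the members and -0.0358 over all genes. Slc40a1 differed most (log2 difference 7.39, SE 0.197, adjusted p = 8.23e-27, edgeR), followed by Slc11a1 (log2 6.19), Ftl1 (4.31) and Fth1 (3.68). TMM scaling, set against plain totals, raised all log2 differences by 1.21 in neutrophil-like cells and by 0.49 in muscle fibre-like droplets, and moved them by -0.32 to -0.10 in 7 other classes. Without TMM the same 4 genes stood at 6.16, 4.97, 3.09 and 2.47, still called. Trf stood at 2.52 with TMM and 1.28 without, called in both. Tfrc (2.21) and Scara5 (2.13) were called with TMM and not without, at 0.96 and 0.88. Scara5 was also not called without replicate 1 (1.78). Cp was lower (-2.73), but not called without replicate 1 (-1.57). Steap3 was not called with TMM (-0.45) and was called lower without it (-1.73).

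In the stromal classes of the same fit, lymphatic endothelial-like cells were higher in Cp (log2 difference 6.29, SE 0.218, adjusted p = 6.09e-23, edgeR), 1 of 9 members higher and 4 lower against 28.4% of genes. Mural-like cells had Cp (log2 difference 4.69, adjusted p = 1.88e-17) and Slc11a1 (log2 difference 1.07, adjusted p = 1.47e-05) higher and 3 members lower, against 30.2% of genes. The mural-like Slc11a1 call was lost without replicate 2 (0.82) and with doublets kept (0.51). Trf in mural-like cells was lower (log2 difference -5.52, adjusted p = 1.22e-10, edgeR). Tenocyte-like cells, of tendon, had Slc40a1 (log2 difference 3.19, adjusted p = 5.64e-10) and Steap3 (log2 difference 4.31, adjusted p = 2.44e-21) higher by edgeR, in 3 higher and 3 lower of 9, against 31.1% of genes. Scara5 in tenocyte-like cells (1.74) was not called without replicate 1 (1.53, adjusted p = 0.146, edgeR) or replicate 3 (2.85, adjusted p = 0.0682). Fibroblast-like cells had Scara5 (6.75), Steap3 (4.17) and Cp (3.42) higher and 3 members lower, against 31.9% of genes called. Endothelial-like cells had 1 member higher and 5 lower, against 27.5% of genes.

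Of the immune classes, macrophage-like cells had 5 of 9 members higher and none lower, against 22.1% of genes: Slc11a1 (4.05), Ftl1 (2.44), Fth1 (2.05), Trf (1.95) and Steap3 (1.71). Monocyte-like cells had Slc11a1 (3.37) and Trf (2.66) higher, against 22.5% of genes. In monocyte-like cells Slc40a1 (-4.11) and Cp (-3.35) were called lower. The Slc40a1 call rested on the same 2 UMIs and was lost without replicate 2 or replicate 3 (-4.29 and -4.07, adjusted p = 1 and 1 by edgeR), and the Cp call without replicate 1 (-2.27). In T, NK or ILC-like cells 4 members were higher and 1 lower (21.2% of genes), with Tfrc at 1.60. This class also held the neutrophil markers given above, and the part of neutrophil RNA in its calls was not tested. The cDC1-like class had 1 higher and 3 lower (23.0% of genes) and the cDC2-like class 1 higher and 2 lower (22.9%). Muscle fibre-like droplets had no call among the 9 by edgeR, against 41.1% of genes, with 3 members at an unadjusted p under 0.05 and 3 called by DESeq2.

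The neutrophil-like class was made of 2 clusters that differed in ferritin. Cluster 10 (616 cells) led in the inflammatory genes Cxcl2, Acod1 and Ccl3, and cluster 17 (344 cells) in the granulocyte genes S100a9, Retnlg and Il1r2. The values are a description, with no test. Ftl1 was at 16159.5, 17036 and 19434 CPM in cluster 10 and 2005, 2366 and 2143 CPM in cluster 17. Fth1 was at 27025, 30129 and 31190.2 CPM in cluster 10 and 10014, 10763 and 8583 CPM in cluster 17. Slc40a1 was at 261, 258 and 307 CPM in cluster 10 and 152, 133 and 129 CPM in cluster 17. In all 3 genes the clusters did not overlap, and cluster 10 was higher in every library. For Ftl1 and Fth1, every macrophage-like library lay between the 2 clusters. Slc11a1 hardly differed, at 529.9 ± 25.97 CPM in cluster 10 and 499 ± 38.8 CPM in cluster 17 (SD, n = 3 each). Trf ran the other way, with 36.4, 22.9 and 27.7 CPM in cluster 10 and 178, 121 and 231 CPM in cluster 17.

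Among the wider list of iron genes, 6 are given here as values, chosen after they had been seen and without a test. Hmox1, haem oxygenase, which frees iron from haem, was at 558, 917 and 754 CPM in cluster 10 and 43.3, 58.5 and 32.96 CPM in cluster 17. Bach1, a haem-responsive repressor, was at 517 ± 23.8 CPM in cluster 10 and 239.7 ± 43.6 CPM in cluster 17. Fbxl5, the iron-sensing adaptor that leads iron regulatory proteins to breakdown, was at 1152 ± 152 CPM in cluster 10 and 819 ± 82.6 CPM in cluster 17. Lcn2, which binds bacterial siderophores, was the lower in cluster 10, at 461 ± 71.7 CPM, against 1038 ± 181 CPM in cluster 17. Slc48a1, a haem transporter, stood at 10.4 ± 2.63 CPM in cluster 10 and 10.7 ± 4.22 CPM in cluster 17. Ireb2, an iron regulatory protein, stood at 34.8 ± 8.77 CPM in cluster 10 and 44.6 ± 2.03 CPM in cluster 17, with overlapping ranges.

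**Figure D5:**
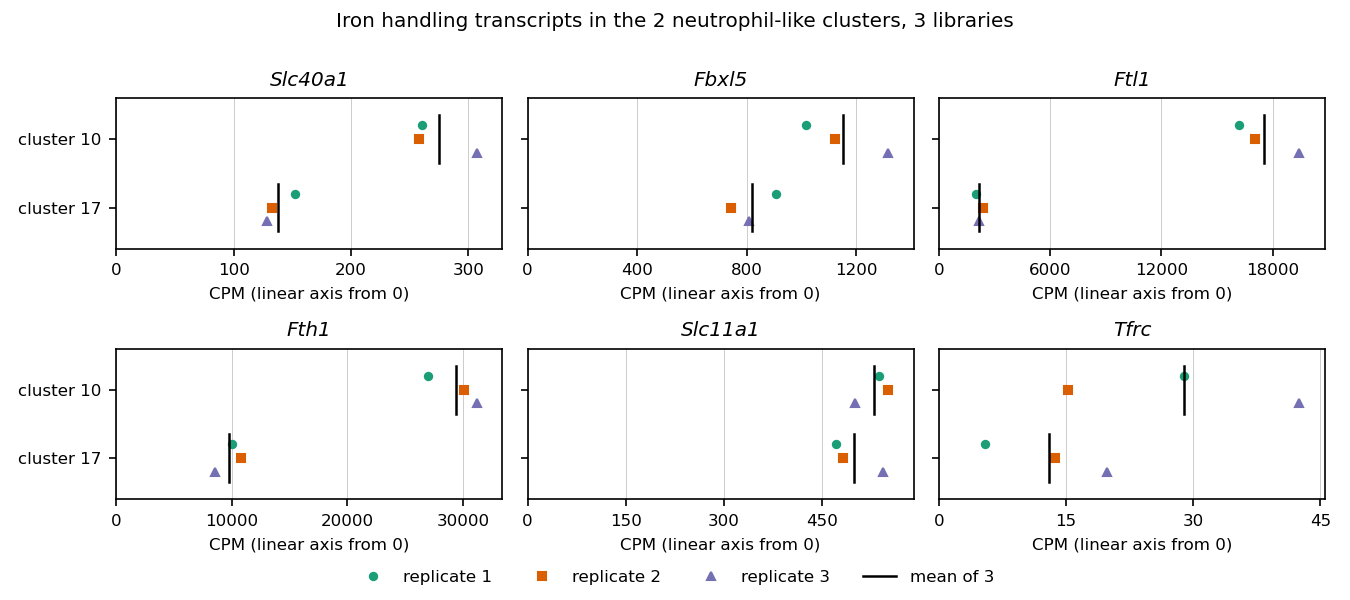
CPM, on linear axes from 0, of 5 members and Fbxl5 in the 2 neutrophil-like clusters, with symbols for the 3 libraries and black lines for means. Cluster 10 lies to the right of cluster 17 for Ftl1, Fth1, Slc40a1 and Fbxl5 in every library.

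A wider list of 56 other iron genes gives the background of the pathway. In macrophage-like over fibroblast-like cells, 53 of them were tested, 14 were called higher and 16 lower, with a median log2 difference of 0.24. The strongest were Spic (6.42), a transcription factor of iron-recycling macrophages, Cd163 (5.56), the haemoglobin scavenger receptor, and Alas1 (4.09), the first enzyme of haem synthesis. The metalloreductases Steap2 (-6.58) and Steap1 (-6.005) and Bmp6 (-6.07), an inducer of hepcidin in the liver, were the lowest. In macrophage-like over other immune-like cells, 8 of 39 were called higher and 3 lower, with Slc48a1 (2.65), the haem transporter of phagolysosomes, Blvrb (2.49) and Alas1 (2.003) leading, and Lcn2 (-4.54), Steap4 (-2.25) and Fbxl5 (-1.72) lowest.

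The same haem genes led in macrophage-like over monocyte-like cells, where 6 of 37 were called higher and 2 lower. Blvrb (2.70), a biliverdin reductase, Slc48a1 (2.64) and Alas1 (2.62) were the most raised, and Slc25a28 (-1.25), a mitochondrial iron importer, and Hp (-1.02), haptoglobin, were the ones lowered. In fibroblast-like over other stromal-like cells, 8 of 50 were called higher and 7 lower. Steap1 (5.15), Hp (4.19) and Steap2 (2.67) led, and Hjv (-6.97), a co-receptor of muscle and liver, Cybrd1 (-3.17), a ferric reductase, and Lcn2 (-2.997) were lowest. Within macrophages, Alas1 was called higher in state 0 (1.47) and lower in state 3 (-1.93), while Hfe, the haemochromatosis gene, ran the other way, at -1.17 in state 0 and 1.77 in state 3. All these calls are edgeR's, adjusted over all genes tested.

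For each member, the 2 genes whose mean log2(CPM + 1) had the highest Pearson correlation with its own over the 12 classes were taken from 12559 genes with a mean of at least 10 CPM in 1 of them. The classes share libraries and differ in depth, so these are descriptions with no p. For Ftl1 they were Ftl1-ps1 (r = 0.99) and Ankdd1a (r = 0.98), and for Fth1 Atp6v1d (r = 0.93) and Atp6v1e1 (r = 0.93), both subunits of the lysosomal proton pump. Slc40a1 was nearest to Chil1 (r = 0.93) and Gadd45a (r = 0.90), and Slc11a1 to Ncf4 (r = 0.92) and C9orf72 (r = 0.92). Tfrc was nearest to Batf (r = 0.95) and Kif21b (r = 0.94). Scara5 was nearest to Dbx2 (r = 0.96) and Mlana (r = 0.96), and Steap3 to Clmp (r = 0.95) and Zfp469 (r = 0.94). Cp was nearest to Ccdc141 (r = 0.97) and Armc9 (r = 0.96), and Trf to Kdm7a (r = 0.97) and Vav3 (r = 0.96).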

How the data were processed

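The deposited matrices hold raw UMI counts by gene and barcode, which the authors had not normalized. Per the file headers they were written by Cell Ranger 7.0.0, whereas version 6.1.2 stands in the submitters' processing notes. Genome build, annotation and whether intronic reads were counted: not given in the sources used here. Intronic reads, if counted, are part of every level. Total UMIs per library were 136519688, 192348779 and 104482261, and intervals or shares drawn from them cover counting error only.

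Cells needed at least 500 UMIs and 200 genes and at most 20% mitochondrial UMIs. The barcodes with the highest Scrublet scores (scanpy 1.11.5) were removed as likely doublets, 295, 598 and 200 per library. Those numbers followed an assumed rate of 0.8% per 1000 barcodes, where Scrublet's own threshold called 77, 175 and 34. Clustering used 2000 variable genes, 30 components and Leiden resolution 1 (leidenalg 0.10.2), without the members and the wider iron list, then resolution 0.5 within macrophage-like and fibroblast-like cells. The limits for naming a cluster from its markers were set after the marker tables had been seen. The members, lists and tests were chosen with earlier results of these data known. All 9 members are named, and of the wider list the 3 with the largest called difference in each direction. Barcodes shared between libraries (10 to 13 per pair) were kept.

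UMIs were summed per library and class and tested with edgeR 4.0.16 (quasi-likelihood, TMM scaling, filterByExpr, R 4.3.3) with the library as a block, since both sides of each comparison came from the same suspension. The 4 planned comparisons used only their own 6 sums, and states and classes shared 1 fit each. Fits were tested on simulated data. Alternatives were DESeq2 1.42.0, other scaling and filters, no doublet removal, no block, other clusterings, other weights and each library left out.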

Additional observations from a re-analysis of the deposited data

How the results depend on the processing

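Under every alternative run, 8 of 9 members were called in macrophage-like over fibroblast-like cells, except that 9 were without the macrophage subcluster that carries neutrophil markers. Calls in macrophage-like over other immune-like cells numbered 5 both without mixed or low-UMI clusters and without neutrophil-like cells, against 3 reported. There the Slc40a1 difference, -3.52 as reported, turned round to 0.67 and 0.84 in those fits, and to 0.34 in 1 fit over all classes and 0.23 with every other class weighted equally. The makeup of the other immune-like side changes by construction in each of these 4. The fits without neutrophil-like cells, over all classes and with equal weights kept macrophage state 4, whose part in the turn was not tested. The last 2 settings gave 5 calls in fibroblast-like over other stromal-like cells, against 3 reported, and turned Cp from -0.77 to 1.33 and 1.34. With doublets kept, Cp in macrophage-like over monocyte-like cells became -0.0121 and Scara5 in tenocyte-like cells -0.37. The cause was not tested. Over single members, 1793 of the alternative values in the planned comparisons and states stayed called in the same direction or stayed uncalled. A further 35 gained a call, 28 lost one and 7 changed sign with a call in the reported or the alternative fit. Values uncalled in both fits were counted among the 1793 whether or not their sign changed.

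Leaving out 1 library gave 8 to 8, 3 to 4, 4 to 5 and 3 to 4 member calls in the 4 planned comparisons in the order of the text, against 8, 3, 5 and 3 with all 3. It gave 6 to 11 over the macrophage states (9 reported), 20 to 21 over the fibroblast states (21 reported) and 51 to 56 over the classes (57 reported). Without the replicate block the counts were 8, 2, 4, 3, 8, 21 and 57 in the same order. Depth limits Slc40a1, Cp and Scara5 in macrophage-like cells most, where a library's level was often a few CPM.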

Other observations

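Classes with under 20 cells in a library were not tested on their own, though their UMIs are part of the pooled other immune-like or other stromal-like cells, and their levels are given as values only. pDC-like cells had 75.2, 104 and 37.4 CPM of Tfrc in replicates 1, 2 and 3, or 72.2 ± 33.5 CPM (SD, n = 3). Satellite or myoblast-like cells, the stem cells of muscle and their progeny, had 402, 351 and 179.9 CPM of Cp, and Schwann-like cells, the glia of peripheral nerve, 165, 188 and 340.01 CPM. Migratory dendritic-like cells had 7447, 7424 and 5189.5 CPM of Fth1 and 5914, 4378 and 3102 CPM of Ftl1. Mast or basophil-like cells had 4268, 2814 and 7405 CPM of Fth1 and 0, 15.8 and 0 CPM of Slc40a1.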
